A study of Homo sapiens with 16 samples.

Results

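Heme is taken apart, and its iron stored, exported or used again, by a small set of proteins. The mRNAs of 10 genes of this kind were followed in MOLM13 and K562 leukemia cells, with and without Ro 08-2750 (Ro), a small molecule that binds the RNA-binding protein MSI2. The genes were HMOX1, BLVRA, BLVRB, FECH, FTH1, FTL, NCOA4, TFRC, SLC40A1 and BACH1. They were found by symbol in a table of read counts and made up 10 of its 25221 genes. The list was chosen by gene function with the Ro changes in these libraries already in view, so those changes are given as a description with no p-value. Where a count of calls among the 10 genes stands beside the share of all genes called with Ro, it restates values already in view and nothing is read from it. Among the 10 genes, p-values are given only for the difference between the cell lines with DMSO. The symbol BACH1 stood on 2 rows of the table, and the second, which RefSeq lists by its identifier as GRIK1-AS2, held 0 counts in all 16 libraries and was left out.

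MOLM13 is a line from acute myeloid leukemia of FAB type M5a that carries the MLL-AF9 fusion, and K562 is an erythroid line of chronic myeloid leukemia taken in blast crisis that carries BCR-ABL. Each line had 4 libraries from cells given DMSO alone and 4 from cells given 20 μM Ro in DMSO for 4 h, with 0.1% DMSO in the medium, and the sample titles number them as pairs 1 to 4. MOLM13 was at passages 8 to 12 and K562 at passages 12 to 18 by the labels, so line and passage cannot be told apart. Nothing in the labels says that the libraries of a group came from separate cultures, and p-values measure the spread between these libraries only. Libraries were read from the 3′ ends of mRNAs, so a count does not grow with the length of the transcript. Levels of different genes are compared as CPM (counts set to a common library total with TMM scaling over all 16 libraries). Such a comparison does not hold for genes whose reads may be split or lost in counting, as for FTH1 below.

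Heme oxygenase, the product of HMOX1, opens the heme ring and frees its iron. The biliverdin that results is reduced to bilirubin by the biliverdin reductase BLVRA, and BLVRB is a second biliverdin reductase that also reduces flavins. FECH works in the other direction and puts iron into protoporphyrin in the last step of heme synthesis. Free iron is held in ferritin, a shell of heavy (FTH1) and light (FTL) chains that NCOA4 delivers to lysosomes when iron is needed, while TFRC brings iron-loaded transferrin into the cell and ferroportin, the product of SLC40A1, carries iron out. BACH1 is a repressor that heme removes from DNA, and HMOX1 and the ferritin genes are among the genes that it and its counterpart NRF2 share.

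Part of this control acts on the mRNA itself. Iron regulatory proteins bind a hairpin, the iron-responsive element, whose loop follows a bulged C. In a 5′ UTR the hairpin blocks translation when iron is scarce, and in a 3′ UTR it protects the mRNA from decay. The GENCODE v29 transcript models of the 10 genes were searched on their sense strand for this hairpin, read as a C, 5 bases, the loop letters CAGTGN and 5 bases that pair with the first 5 (G with U allowed), and 4 genes held it. FTH1, FTL and SLC40A1 held it in the 5′ UTR, and TFRC held 4 in the 3′ UTR. By the same search it was found in 241 of 19684 protein-coding genes (1.22%), whereas the letters without pairing were found in 65.4%. The sites of FTL, SLC40A1 and TFRC are printed to show the letters of the hairpin in an iron store, an iron exporter and an iron importer. The search itself fixed the capitals, which mark the bulged C and the loop, and the pairing of the 5 bases on either side, while the other letters were free to vary. They run 5′ to 3′ on the transcript's strand and are given with GRCh38 positions.
FTL, 5′ UTR, chr19:48965336-48965362, plus strand: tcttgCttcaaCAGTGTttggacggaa
SLC40A1, 5′ UTR, chr2:189580662-189580688, minus strand: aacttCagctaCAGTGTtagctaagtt
TFRC, 3′ UTR, chr3:196050980-196051006, minus strand: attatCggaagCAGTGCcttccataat
TFRC, 3′ UTR, chr3:196050576-196050602, minus strand: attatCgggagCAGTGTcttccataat
TFRC, 3′ UTR, chr3:196050511-196050537, minus strand: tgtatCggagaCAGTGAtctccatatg
TFRC, 3′ UTR, chr3:196050464-196050490, minus strand: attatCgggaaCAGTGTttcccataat

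Libraries held between 3143129 and 43571060 counts, the lowest totals being the 3143129 and 4383241 counts of K562 with DMSO in pairs 2 and 4. A gene needs about 3 counts to be told from 0, which was 0.872 CPM in the smallest library on the TMM scale used here (counting error only). Of 8 myeloid markers chosen for MOLM13, 8 had a median of at least 1 CPM in MOLM13, where their sum ran from 614.9 to 762.2 CPM. In K562 it was 6 of the 8, MPO and HOXA9 being under 1 CPM, and the sum ran from 146.6 to 296.3 CPM. Of 8 erythroid markers chosen for K562, 7 reached that level in K562 (summed 1495 to 2870 CPM, HBE1 being under 1 CPM) and 1 in MOLM13 (summed 2.63 to 6.20 CPM). HBE1 was under 1 CPM in both lines. Since the counting settings are not given, absence of its mRNA cannot be told from reads lost in counting. Markers of lymphoid cells and fibroblasts summed to at most 11.7 CPM. Pair 4 of MOLM13 stood apart for several of the 10 genes under both treatments, and results that rest on it are given with and without it.

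The untreated lines differed widely in this pathway. SLC40A1 reached the count minimum only through its K562 libraries and is described by its counts. Of the other 9 genes, with DMSO, 7 were higher in K562, HMOX1 was lower and BACH1 did not pass the test (edgeR quasi-likelihood test, Benjamini-Hochberg adjusted threshold of 0.05). Of all 15268 genes tested, 41.3% were called, 20.3% higher and 21.1% lower in K562. The Ro libraries, which that test did not use, gave 7 of the 9 higher, the same 7 as with DMSO, and HMOX1 lower. There 54.3% of 15346 genes were called, 27.5% higher and 26.8% lower. These libraries share lines and pair numbers with the DMSO libraries, so they are not independent support. Every call there includes the Ro changes of that gene, as for HMOX1 in MOLM13. With Ro the log2 fold changes of K562 over MOLM13 were 4.40 for BLVRA, 3.19 for BLVRB, 2.78 for FECH, 2.28 for FTH1, 1.44 for TFRC, 1.08 for FTL and 0.90 for NCOA4. Scaling to total counts in place of TMM moved the balance over all genes to 5008 higher and 2023 lower with DMSO, from 3098 and 3215, and to 5319 higher and 2666 lower with Ro, from 4218 and 4112. It still called 8 of these 9 genes in each, 7 higher and 1 lower.

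**Figure D1:**
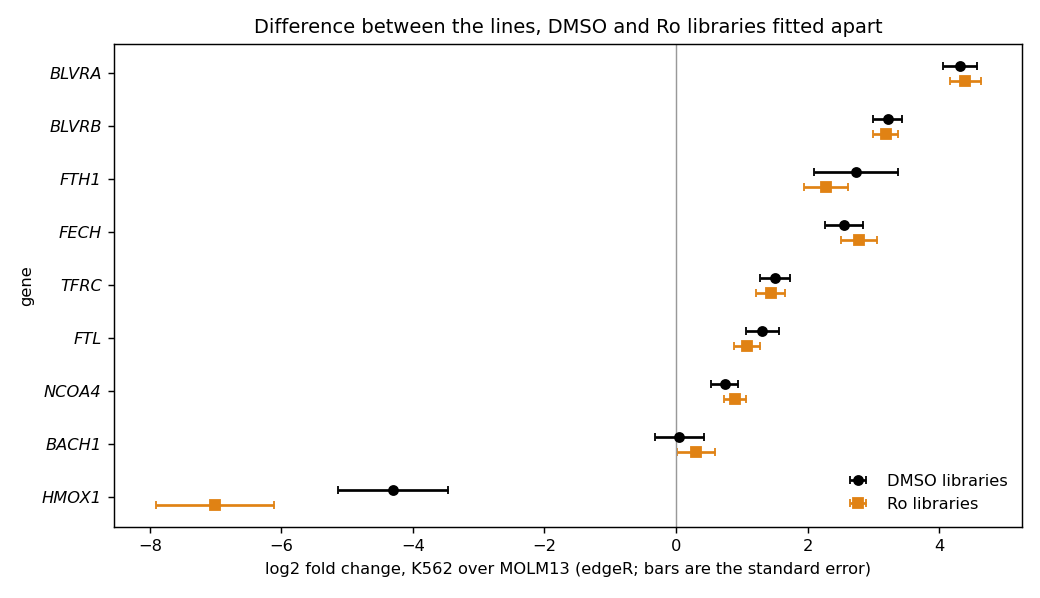
The log2 fold change of K562 over MOLM13 (x axis) is plotted for 9 of the genes (y axis), from edgeR fits of the DMSO libraries (black circles) and of the Ro libraries (orange squares), with standard errors as bars. BLVRA lies farthest to the right at 4.32 and 4.40, BACH1 lies at 0.05 and 0.30, and HMOX1 lies to the left at -4.30 and -7.01. SLC40A1 is not drawn because MOLM13 held 2 and 5 counts of it.

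HMOX1 was higher with Ro in all 4 pairs of MOLM13, and in K562 it lay under 3 CPM in every library. In MOLM13 its level with DMSO was 9.53, 51.4, 64.4 and 2.63 CPM in pairs 1 to 4. With Ro it was 302, 189.8, 295 and 6.26 CPM in the same order. Pairs 2 and 3 were high and pair 4 was low under both treatments, whereas pair 1 was low with DMSO and the highest with Ro. The groups overlapped, since the Ro library of pair 4 lay below the DMSO libraries of pairs 1, 2 and 3. Because RNA came from whole cultures, a larger share of cells that express a gene and more of its RNA per cell cannot be told apart.

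The ratio of Ro to DMSO for HMOX1 in MOLM13 was 31.7 in pair 1, 3.69 in pair 2, 4.58 in pair 3 and 2.37 in pair 4. The fitted log2 change in edgeR was 2.65 (standard error 1.10) without the pair number and 2.51 (standard error 0.28) once the pair was added as a replicate block. DESeq2 with the block gave 2.48 with a larger standard error of 0.71, and the SD of the change over the 4 pairs was 1.65. The edgeR value of 0.28 therefore understates how far the pairs differed. Leaving out a pair from the blocked edgeR fit gave between 1.92, without pair 1, and 2.81, without pair 2. Among 15031 genes tested this blocked change ranked 1 from the top, which restates the values in view when the genes were listed. Of all genes tested, 2.11% were called with the block, 0.938% higher and 1.17% lower, and of the 9 members that reached the count minimum in MOLM13 HMOX1 was called, higher. Without the block 0 of the 9 members and 0% of all genes were called by edgeR, while 126 genes lay higher and 49 lay lower at an unadjusted p below 0.05. DESeq2 called 1 gene without the block and 266 with it.

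The spread of HMOX1 between libraries of the same group was also unusual in MOLM13. The SD of its log2 level over 4 libraries was 2.15 with DMSO and 2.69 with Ro, against medians of 0.32 and 0.31 over all genes. Among 15031 genes, 2 had a larger SD than HMOX1 with DMSO and 0 had a larger SD with Ro. The highest library held 24.4 times the level of the lowest with DMSO and 48.3 times with Ro.

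In K562 the level of HMOX1 was 1.63, 0.581, 1.28 and 2.98 CPM with DMSO and 1.29, 1.19, 1.79 and 1.77 CPM with Ro in pairs 1 to 4. These values rest on 2 to 73 counts, and the value of 0.581 CPM lies under the limit of 3 counts. It was higher with Ro in 2 pairs and lower in 2, with a log2 change of -0.08 (standard error 0.36). The Ro change in K562 minus that in MOLM13 was -2.69 (standard error 1.27), or -2.55 (standard error 0.79) with the block. In the edgeR test of that difference 0 of 16224 genes passed with or without the block, and at an unadjusted p below 0.05 the unblocked fit had 41 genes with a higher and 177 with a lower change in K562. DESeq2 with the block called 3.

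The order of HMOX1 levels was MOLM13 with Ro (198 ± 138 CPM, mean ± SD, n = 4), MOLM13 with DMSO (32.0 ± 30.5 CPM), K562 with DMSO (1.62 ± 1.01 CPM) and K562 with Ro (1.51 ± 0.313 CPM). The 2 K562 groups overlapped, as did the 2 MOLM13 groups. With DMSO the MOLM13 level was 19.8 times that of K562 (log2 fold change of K562 over MOLM13 -4.30, standard error 0.84, edgeR adjusted p = 9.7e-04), although the MOLM13 library of pair 4 lay below the K562 library of pair 4. Without that MOLM13 library the log2 fold change was -4.71. With Ro the MOLM13 level was 129 times that of K562 (log2 fold change -7.01, standard error 0.90), and the libraries of the lines did not overlap. That difference includes the rise of HMOX1 with Ro in MOLM13, which was in view when the genes were listed. No p-value is therefore given for it.

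**Figure D2:**
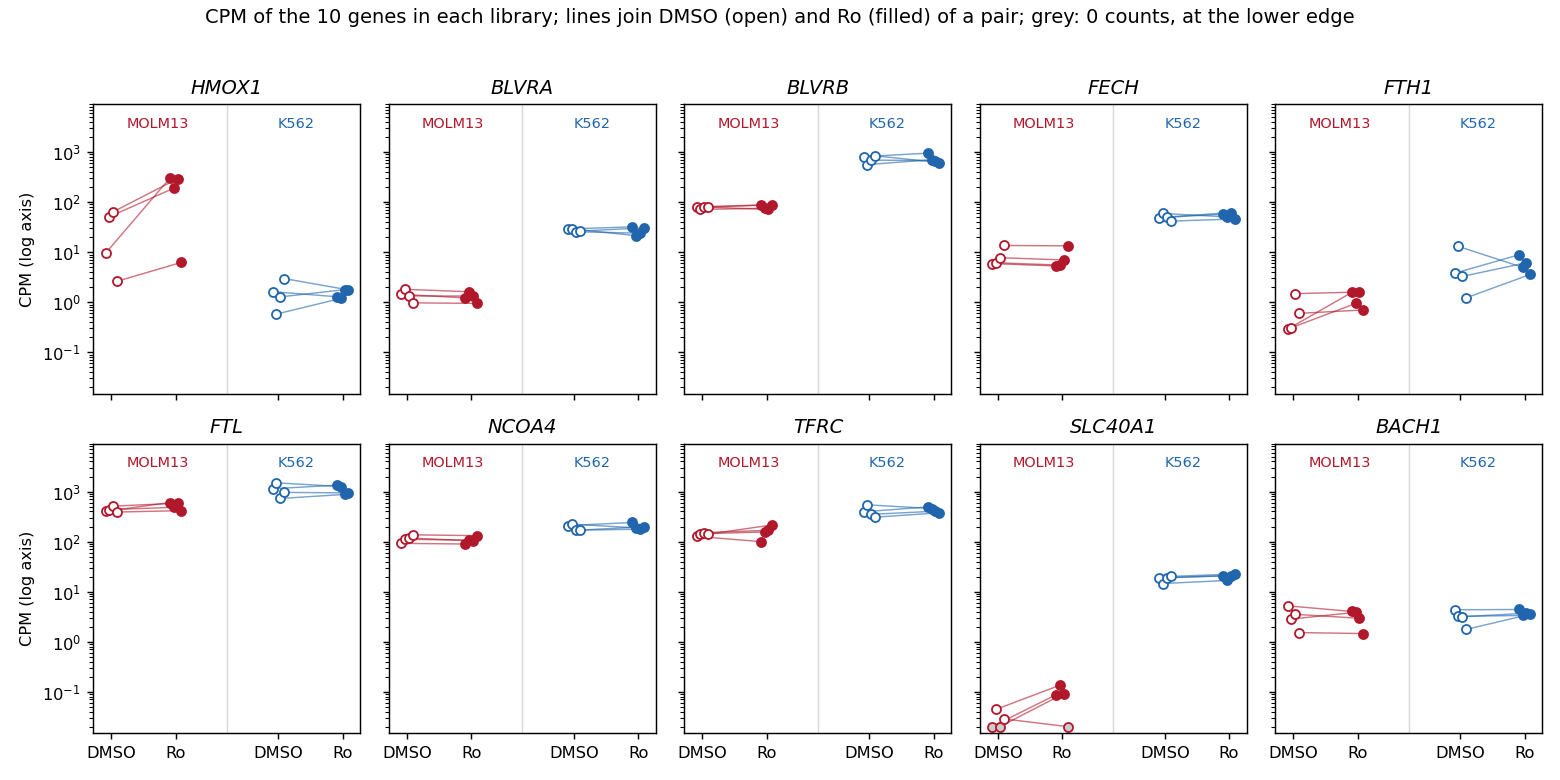
Each panel shows the CPM of a gene on a log axis (y) in every library by line and treatment (x). Open points are DMSO, filled points are Ro, lines join the libraries of a pair and grey points at the lower edge are libraries with 0 counts. HMOX1 in MOLM13 spans 2.63 to 302 CPM, whereas BLVRB there lies between 71.6 and 88.8 CPM, and FTL lies between 390 and 1497 CPM in all libraries.

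The biliverdin reductases stood the other way round between the lines. BLVRB (chr19:40447765-40465840, minus strand, GRCh38), which also reduces flavins, had 80.6, 71.6, 80.0 and 79.8 CPM in MOLM13 with DMSO and 812, 565, 693 and 846 CPM in K562. All K562 libraries lay above all MOLM13 libraries. BLVRB was thus 9.31 times higher in K562 (log2 fold change 3.22, standard error 0.22, edgeR adjusted p = 9.8e-08).

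BLVRA (chr7:43758680-43807342, plus strand), which acts on the form of biliverdin that heme oxygenase yields, was far scarcer than BLVRB in both lines. It had 1.44, 1.82, 1.34 and 0.974 CPM in MOLM13 with DMSO and 29.2, 29.4, 25.7 and 26.5 CPM in K562. The libraries of the lines did not overlap, and the log2 fold change was 4.32 (standard error 0.26, edgeR adjusted p = 2.7e-08). The mean level of BLVRB was 56.0 times that of BLVRA in MOLM13 and 26.4 times in K562, both with DMSO. With Ro in MOLM13 the log2 change in the blocked fit was 0.07 (standard error 0.07) for BLVRB, which was higher in 3 of 4 pairs, and -0.08 (standard error 0.25) for BLVRA, which was lower in 4 of 4 pairs by at most 0.22.

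FECH, the ferrochelatase that completes heme, was also higher in K562. It had 5.92, 6.16, 7.79 and 13.7 CPM in MOLM13 with DMSO and 48.9, 59.6, 50.4 and 41.9 CPM in K562, and the lines did not overlap (log2 fold change 2.55, standard error 0.29, edgeR adjusted p = 7.7e-06). The MOLM13 library of pair 4 was the highest of its group with DMSO and again with Ro, where it had 13.4 CPM and the other pairs 5.33 to 7.01 CPM. Without it the DMSO difference between the lines was 2.90. The Ro change of FECH was small, at -0.09 (standard error 0.12) in MOLM13, where all 4 pairs were lower by at most 0.15, and 0.12 (standard error 0.14) in K562 in the blocked fits.

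Of the ferritin chains, FTL had the highest mean CPM of the 10 genes in either line. This is a ranking of counts and not of mRNAs, since the FTH1 values are uncertain. FTL had 404, 434, 512 and 390 CPM in MOLM13 with DMSO and 602, 485, 585 and 416 CPM with Ro. Each pair was higher with Ro, by log2 changes of 0.58, 0.16, 0.19 and 0.09, while the groups overlapped. The blocked log2 change was 0.27 (standard error 0.08) with all 4 pairs and 0.32 when pair 4 was left out. In K562 FTL was higher with Ro in 2 pairs and lower in 2, with a blocked change of 0.06 (standard error 0.16). Between the lines, FTL in K562 with DMSO had 1140, 1497, 728 and 964 CPM, without overlap with MOLM13 (log2 fold change 1.31, standard error 0.25, edgeR adjusted p = 7.4e-04).

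FTH1 had far lower counts than FTL, and its values are uncertain. In MOLM13 it had 0.289, 0.310, 1.49 and 0.602 CPM with DMSO and 1.57, 0.946, 1.60 and 0.701 CPM with Ro, from 2 to 35 counts per library. Every pair was higher with Ro, by log2 changes of 2.10, 1.35, 0.10 and 0.19, so that pairs 1 and 2 carried most of the mean. In K562 it had 3.80, 13.1, 3.28 and 1.23 CPM with DMSO and 8.87, 4.99, 6.17 and 3.61 CPM with Ro. Pairs 1, 3 and 4 were higher with Ro by 0.89 to 1.48 and pair 2, whose DMSO library was the smallest, was lower by 1.37. With pairs 1 and 3 alone the blocked log2 change of FTH1 in K562 was 1.06 (standard error 0.22), against 0.55 (standard error 0.44) with all pairs.

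Between the lines FTH1 was 6.67 times higher in K562 with DMSO (log2 fold change 2.74, standard error 0.64, edgeR adjusted p = 0.00364), with overlap of the lowest K562 library and the highest MOLM13 library. Leaving out the K562 library of pair 2 gave 2.03, and the Ro libraries, which did not overlap, gave 2.28 (standard error 0.34). The latter value includes the Ro changes of FTH1, which were in view when the genes were listed, so no p-value is given for it. All 451 runs of 50 bases in the last 500 bases of the FTH1 transcript model lie in BEST1 on the opposite strand, and 19.5% recur in the same orientation in the pseudogenes FTH1P10 and FTH1P16. BEST1 itself had 1 to 18 counts per library. The use of strand and of reads with several matches in counting is not given in the sources used here, so the ratio of 647 between the mean levels of FTL and FTH1 in MOLM13 with DMSO is a ratio of counts and not of mRNAs. Of the runs of FTL 20.0% recur in FTLP3 and of those of NCOA4 6.21% in NCOA4P3, and for the other 7 genes 0% recur in another gene.

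NCOA4 (chr10:46005088-46030714, minus strand), the receptor that carries ferritin to lysosomes, was moderately abundant in both lines. It had 92.3, 111, 118 and 137 CPM in MOLM13 with DMSO and 209, 223, 169 and 170 CPM in K562, again without overlap. The line difference was the smallest that passed the test (log2 fold change 0.74, standard error 0.21, edgeR adjusted p = 0.0117). With Ro every MOLM13 pair was lower, by 0.05 to 0.19 on the log2 scale, and 3 of 4 K562 pairs were higher by 0.07 to 0.22.

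TFRC, the transferrin receptor, had 127, 143, 151 and 141 CPM in MOLM13 with DMSO and 394, 543, 351 and 307 CPM in K562. The lines did not overlap (2.82 times higher in K562, standard error 0.23 on the log2 scale, edgeR adjusted p = 1.2e-04). In MOLM13 the pairs went both ways with Ro, to 99.97, 156, 168 and 215 CPM, which put pair 1 lower by 0.34 and pair 4 higher by 0.61 on the log2 scale. The blocked change was 0.16 (standard error 0.10) in MOLM13 and 0.15 (standard error 0.16) in K562, and without MOLM13 pair 4 it was 0.00.

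SLC40A1, the only iron exporter known in mammals, was at the edge of detection in MOLM13. Its 4 DMSO libraries there held 2 counts in all and its 4 Ro libraries 5, so no Ro change is given in MOLM13. In K562 it had 18.7, 14.5, 19.0 and 20.2 CPM with DMSO and 20.8, 16.7, 20.8 and 22.5 CPM with Ro. The K562 share of all counts was 985 times that of MOLM13 with DMSO (95% interval 272 to 8140, 1479 counts against 2) and 342 times with Ro (95% interval 146 to 1053, 1767 counts against 5), and these intervals cover counting error only. In K562 it was higher with Ro in 4 of 4 pairs by 0.13 to 0.20 on the log2 scale, with a blocked change of 0.16 (standard error 0.14), while the groups overlapped.

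BACH1 (chr21:29194071-29630751, plus strand), the heme-sensing repressor, was low in both lines, and no difference between them was detected. It had 5.20, 2.83, 3.52 and 1.52 CPM in MOLM13 with DMSO and 4.33, 3.20, 3.16 and 1.75 CPM in K562. The log2 fold change between the lines was 0.05 (standard error 0.37, edgeR adjusted p = 0.926) with DMSO and 0.30 (standard error 0.29) with Ro. Its sign with DMSO changed when some libraries were left out. Pair 4 of MOLM13, the lowest for HMOX1, was also the lowest for BACH1 under both treatments, with 1.45 CPM in its Ro library. The log2 Ro change of BACH1 in the blocked fit was -0.03 (standard error 0.19) in MOLM13 and 0.29 (standard error 0.24) in K562, and the latter was 0.11 without pair 4.

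In K562, 0 of the 10 members and 0% of all 15227 genes were called with Ro by edgeR with or without the block. At an unadjusted p below 0.05 the unblocked fit had 52 genes higher and 135 genes lower, and DESeq2 with the block called 2 genes. The median log2 Ro change over the members was 0.07 in MOLM13 and 0.10 in K562 in the blocked fits, against 0.00 and 0.02 over all genes. Keeping pairs 1 and 3 of K562, without the 2 smallest libraries, called 418 of 13667 genes with the block (3.06%), of which 195 were higher (1.43%) and 223 were lower (1.63%).

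**Figure D3:**
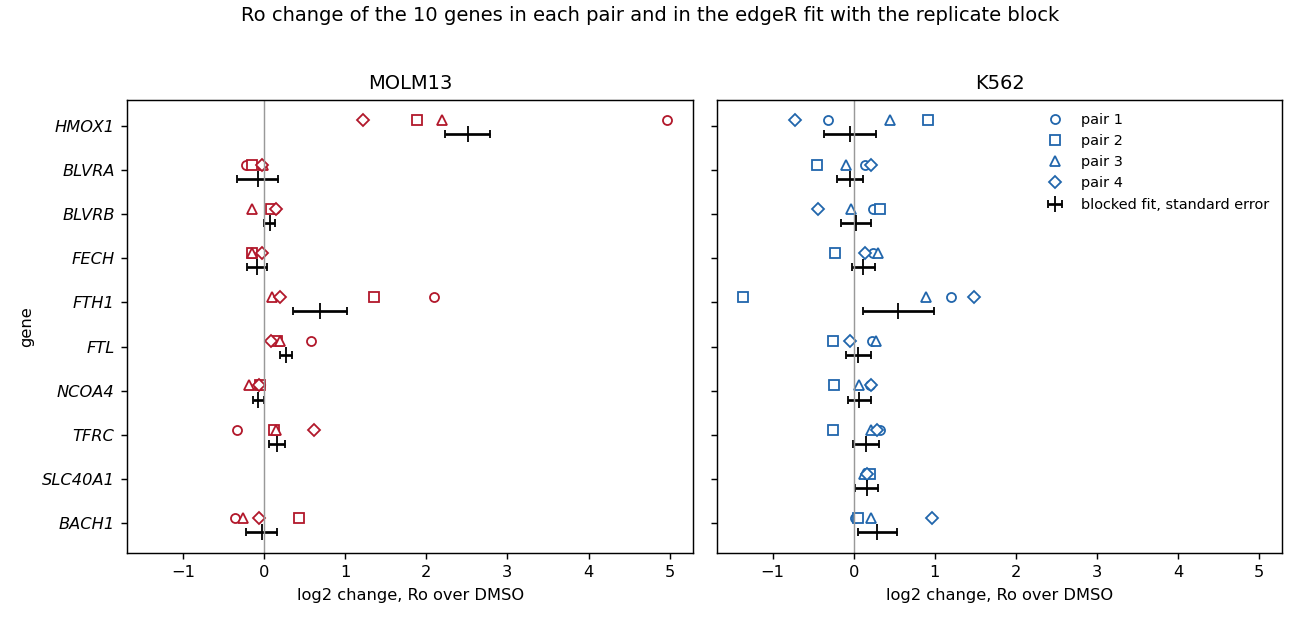
The log2 change of Ro over DMSO (x axis) is plotted for the 10 genes (y axis) in each pair of MOLM13 (left, red) and K562 (right, blue), with the blocked edgeR estimate and its standard error in black. SLC40A1 in MOLM13 is left blank for its few counts. HMOX1 in MOLM13 runs from 1.22 in pair 4 to 4.97 in pair 1, while in K562 its pairs run from -0.72 to 0.92 on both sides of 0.

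The 5 genes whose Ro change over the 8 pairs was most like that of HMOX1, among 10409 genes with at least 10 counts in all libraries, were NQO1 (Pearson r of 0.958 across pairs), A2ML1 (0.947), ATP1B1 (0.945), FAM223B (0.941) and TRIM68 (0.937). The pairs come from both lines, and pair 1 of MOLM13 had the largest change for each of these genes, so the likeness leans on that pair. NQO1, a quinone reductase, was higher with Ro in all 8 pairs, by 1.78, 0.87, 0.85 and 1.04 on the log2 scale in MOLM13 and by 0.16 to 0.49 in K562. ATP1B1 and A2ML1 were lower with Ro in 4 of 4 K562 pairs and in 2 and 3 of the MOLM13 pairs, and A2ML1 reached at most 5.43 CPM in any library.

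Other genes of heme and iron metabolism were taken from 6 lists with 75 genes in all, of which 64 were tested in MOLM13 and 67 in K562. With the block, 2 were called higher with Ro in MOLM13 and 0 lower, where 0.938% of all 15031 genes were called higher and 1.17% lower. That fit had 3 of the list genes higher and 7 of them lower when p was left unadjusted at 0.05, beside 1135 higher and 1450 lower over all genes. In K562 0 were called with all 4 pairs, with 3 higher at an unadjusted p under 0.05, beside 129 of all 15227 genes. Without the block 0 were called in either line by edgeR or DESeq2. At an unadjusted p under 0.05 that edgeR fit had 2 list genes higher in MOLM13 and 0 in K562, beside 126 and 52 over all genes. SLC48A1, a transporter that brings heme out of lysosomes, had 7.37, 8.06, 8.73 and 7.07 CPM with DMSO and 18.7, 12.1, 13.3 and 7.76 CPM with Ro in MOLM13. It rose in the blocked fit by 0.63 (standard error 0.14, edgeR adjusted p = 0.0204, higher in 4 of 4 pairs).

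IBA57, a mitochondrial protein of iron-sulfur cluster assembly, had 12.8, 20.5, 22.6 and 13.8 CPM with DMSO and 20.9, 27.2, 26.9 and 18.1 CPM with Ro in MOLM13. It rose by 0.42 in the blocked fit (standard error 0.09, edgeR adjusted p = 0.0183, higher in 4 of 4 pairs), and in K562 it was higher in 4 of 4 pairs too, at 0.33 (standard error 0.14, edgeR adjusted p = 0.947). With K562 pairs 1 and 3 alone, 2 of 65 list genes were called higher and 0 lower, beside 1.43% and 1.63% of all 13667 genes. These were IBA57, at 0.41 (standard error 0.12), and TMEM14C, at 0.31 (standard error 0.09), which is named here after its value was seen. Neither SLC48A1 nor IBA57 passed when pair 1, 2 or 3 of MOLM13 was left out, and both passed without pair 4. SLC39A14, an importer of zinc and iron that is named here after its value was seen, was also called without pair 4, lower by 0.45 (standard error 0.10). With all pairs it was lower by 0.32 (standard error 0.09) and was not called, nor was it without pair 1, 2 or 3.

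By list, the calls in MOLM13 were 1 of 9 genes of heme transport and other heme breakdown and 1 of 23 genes of mitochondrial iron and iron-sulfur clusters, with 0 of 10 in heme synthesis, 0 of 6 in iron uptake, 0 of 7 in iron storage and export and 0 of 9 among the iron regulatory proteins and their turnover, beside the 0.938% higher and 1.17% lower over all genes. Their median log2 change in the blocked fit ranged from -0.11 in heme synthesis to 0.03 in heme transport, against 0.00 over all genes. HMOX2, the constitutive heme oxygenase, had -0.09 (standard error 0.08) in MOLM13 and -0.02 (standard error 0.13) in K562. Between the lines HMOX2 differed by 0.08 with DMSO (standard error 0.19, edgeR adjusted p = 0.775), with mean levels of 34.2 CPM in MOLM13 and 36.3 CPM in K562.

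BACH1 shares targets with NRF2, and a list of 17 of their partners and shared targets was read beside HMOX1. The list was written with Ro results of these libraries known for GCLM, SRXN1 and OSGIN1, so its count is not independent evidence of a direction. In MOLM13, 7 of the 17 were called higher with Ro in the blocked fit and 0 lower, where 0.938% of all genes were called higher. Their median log2 change was 0.29 against 0.00 over all genes, and leaving out a pair left 5 or 6 calls. Without the block 0 were called by edgeR, with 6 higher at an unadjusted p under 0.05, where 126 of all 15031 genes were higher. Of the 17, DESeq2 called 1 without the block and 4 with it, of the 13 to which it then gave an adjusted p.

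Among them NQO1 rose by 1.11 on the log2 scale in the blocked fit (standard error 0.11). ME1, which makes NADPH, rose by 0.94 (standard error 0.12) and SLC7A11, which imports cystine, by 0.85 (standard error 0.15). OSGIN1, SRXN1 and GCLM had 2.04, 0.97 and 0.81. All of these were smaller than the 2.51 of HMOX1, a value in view when the genes were listed. SLC7A11 was not called by DESeq2 with the block (standard error 0.32) or by edgeR without pair 3. Its pairs in MOLM13 ran from 0.37 to 1.95. HMOX1 changed more than OSGIN1 in pair 1 (4.97 against 2.30), pair 2 and pair 3, and less in pair 4 (1.22 against 2.58). NQO1 had 17.04, 19.3, 38.9 and 11.2 CPM with DMSO in MOLM13, so pair 4 was its lowest library as it was for HMOX1, and 58.9, 35.4, 70.0 and 23.2 CPM with Ro.

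In K562 0 of the 17 were called by edgeR with or without the block, and at an unadjusted p below 0.05 the blocked fit had 7 of them higher and 1 of them lower. Over all 15227 genes that fit had 129 higher and 193 lower at the same p. DESeq2 with the block called 2 of the 17. The blocked estimates in K562 were 1.70 (standard error 0.33) for OSGIN1, 0.84 (standard error 0.17) for SRXN1, 0.76 (standard error 0.14) for GCLM and 0.86 (standard error 0.28) for SLC7A11. HMOX1 in the same fit had -0.05 (standard error 0.32). With pairs 1 and 3 alone, where 1.43% of all 13667 genes were called higher and 1.63% lower, 7 of the 17 were called higher and 1 lower, NFE2, which is named here after its value was seen, and HMOX1 had 0.09 (standard error 0.30). The difference of the Ro effect between the lines passed the adjusted edgeR threshold for 0 of these genes.

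**Figure D4:**
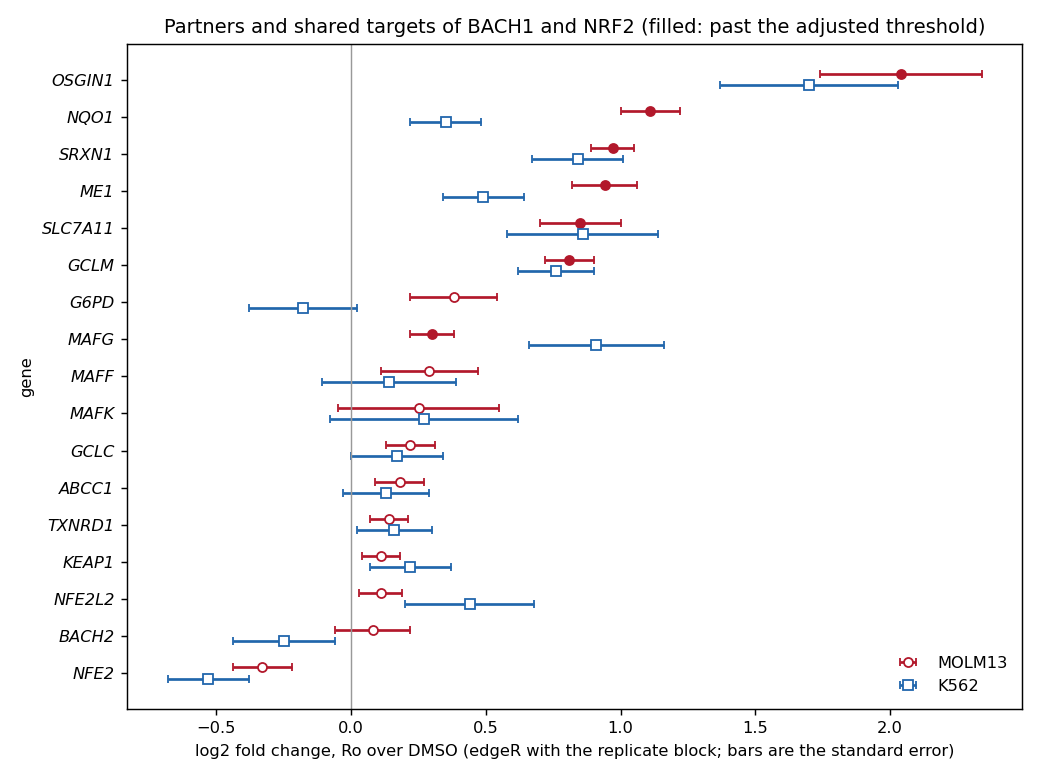
The log2 fold change of Ro over DMSO from the blocked edgeR fits (x axis) is plotted with standard errors for the 17 partners and shared targets of BACH1 and NRF2 (y axis), in MOLM13 (red circles) and K562 (blue squares), and filled points passed the adjusted threshold. The 7 filled points are all in MOLM13, and OSGIN1 lies farthest to the right in both lines, at 2.04 and 1.70.

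Promoter windows around the transcript start were at hand from RefSeq (GRCh38) for 8 of the 10 genes, all but HMOX1 and FTH1, in 11 windows. The antioxidant response element core TGACNNNGC, the letters that NRF2 and BACH1 with their small MAF partners are known to bind, was searched on both strands. It was found in 2 of the 11 windows, those of NCOA4 and FECH, and in 13.3% of all 35116 windows. A match is a description of the letters and shows no binding.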

How the data were processed

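Total RNA of MOLM13 and K562 cells was sequenced with a 3′-end kit, and per the labels the libraries carried spike-in RNAs. The authors deposited whole-number counts of reads per gene by Entrez identifier for 16 libraries, without normalization, and the table holds 0 spike-in rows and 0 columns without a sample. The submitters' processing notes name Trim Galore, STAR 2.5.3a, SAMtools 1.5 and hg38. The counting program, its annotation and its use of strand are not given in the sources used here, so reads on near copies or on overlapping genes may have been split or lost. The fits list SLC40A1 in the line comparisons through its K562 counts.

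Samples were grouped by line and treatment from the titles. The genes followed, the pathway lists and the tests were chosen with earlier results of these data known. The named genes were the 10 members, the list genes past the adjusted threshold in a Ro contrast (at most 6 per list by smallest p) and the 5 genes most like HMOX1. Symbols that begin with FTH1P or FTLP were also looked for and matched 0 rows.

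The edgeR package (4.0.16, R 4.3.3) was used for tests on counts, with TMM, the quasi-likelihood F test, Benjamini-Hochberg adjustment and a threshold of 0.05. A gene needed 10 counts or more in 4 or more libraries of the fit. Ro was compared with DMSO in each line, the lines within DMSO and within Ro, and the Ro effect between lines in a fit of all libraries. Pair numbers come from the titles. Libraries of the same number deviated together from their group means across genes, with correlations of 0.624, 0.440, 0.384 and 0.831 in MOLM13 and 0.352, 0.110, 0.417 and 0.245 in K562, so the fit with the pair as a replicate block is printed beside the main one. CPM uses TMM over all libraries, and a prior count of 2 was added before log2 changes by pair. The standard error printed with an edgeR change is its absolute log2 value divided by the square root of the F statistic. It can be smaller than the spread between pairs. The interval of the SLC40A1 ratio is an exact binomial one at 95%. Scripts were tested on simulated data. Alternatives were DESeq2 1.42.0, other scalings, other count minimums, a single fit of all libraries, leaving out libraries or pairs, and K562 pairs 1 and 3 alone.

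Libraries totalled 3143129 to 43571060 counts, and 3 counts were taken as the limit of detection. Hairpins and near copies were searched in GENCODE v29 transcripts (GRCh38) with Python 3.11.15.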

Additional observations from a re-analysis of the deposited data

Results flagged for a closer look

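Within the 40 groups of 4 libraries, 10 genes by 4 groups, a library lay far from the other 3 of its group in 1 case, where chance alone gives about 1 in 20. This was BLVRB in the MOLM13 DMSO library of pair 2, which had 71.6 CPM while the other libraries had 79.8 to 80.6 CPM, a gap of 0.905 of the range of the group. Leaving out that library gave a log2 fold change of BLVRB between the lines with DMSO that stayed within 3.13 to 3.30, the range over all libraries left out in turn.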

How the results depend on the processing

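All comparisons rest on 4 libraries a group, and the K562 DMSO libraries of pairs 2 and 4 had the fewest counts. For Ro against DMSO in MOLM13, 0 genes were called without the replicate block, and this depended on the pairing: the block gave 317, DESeq2 gave 1 and DESeq2 with the replicate block 266, while leaving out a pair from the blocked fit gave 49 to 358 (49 without pair 3, 106 without pair 1, 187 without pair 2). In K562 the count was 0 with and without the block and when each library or pair was left out, 2 by DESeq2 with the replicate block and 418 with pairs 1 and 3 alone. The difference of the Ro effect between the lines gave 0 calls, or 3 by DESeq2 with the replicate block. The cause of these shifts was not tested.

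The line comparisons gave 6313 calls with DMSO and 8330 with Ro, and every alternative stayed within 1.5 times of these. Same-numbered libraries of the lines did not deviate together (mean correlation -0.04 with DMSO and -0.08 with Ro), and a block across the lines gave 5738 and 7523 calls and changed no call of a member. The fits list SLC40A1 as called through its K562 counts alone, and nothing is read from that call. Leaving out any K562 library removed SLC40A1 from the tested genes, since 4 libraries then no longer reach 10 counts. Total-count scaling moved the median log2 fold change of all genes to 0.41 from 0.00 with DMSO and to 0.23 from -0.05 with Ro, and upper-quartile scaling moved it to -0.12 with Ro.

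Of 331 alternative values of the members' line differences 326 kept their direction and side of the threshold. These include values of SLC40A1, which reached the count minimum only through K562, and its values are not read as support. The 5 values that turned were all of BACH1 with DMSO, which was not called in any fit: -0.05 with the replicate block, -0.06 in DESeq2 with it, -0.20 without K562 DMSO library 1, -0.02 without MOLM13 DMSO library 2 and -0.20 without MOLM13 DMSO library 4, against 0.05. Leaving out a library gave -0.20 to 0.31 for it. Of 406 alternative values of the members' Ro changes 385 moved by less than the SD between pairs of the same gene. That limit is wide where the pairs differ, as for HMOX1 in MOLM13 (SD 1.65), so the count is no measure of stability. The sign held under every alternative for HMOX1, BLVRB, FTH1 and FTL in MOLM13 and for FTH1, TFRC, SLC40A1, FECH and BACH1 in K562.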
